A study of Mus musculus with 6 samples.

Results

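The genes described here are *Ccl17* and 9 other chemokine genes, 10 of the 54532 genes measured by RNA sequencing in whole mouse testes at 5 days postpartum (dpp). They are the ligands *Ccl17*, *Ccl22*, *Cx3cl1*, *Ccl2*, *Ccl7*, *Ccl25*, *Cxcl10*, *Cxcl14* and *Cxcl16*, and the receptor *Ccr4*. *Ccl17* was chosen for its higher level in conditional knockout (cKO) than in control (Ctrl) testes in these same samples. *Ccl22* and *Cx3cl1* were taken as its neighbours on chromosome 8, *Ccr4* as the receptor of CCL17, and the others as further chemokines. The values of the 10 genes in this contrast are therefore given as a description, without a test. The question was whether the higher level of *Ccl17* was shared by the other chemokines.

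The samples were 3 Ctrl and 3 cKO testes. The cKO genotype was *Vasa*-Cre *Srsf1* Fl/del, where Cre is expressed from the promoter of *Vasa*, a germ cell gene, so that the splicing factor gene *Srsf1* is deleted in germ cells. By this notation cells without Cre, such as Sertoli, Leydig, immune and vascular cells, carry 1 Fl allele and 1 deleted allele. The Ctrl samples are labelled Ctrl with no alleles named, and how many animals were pooled in a sample is not given. The RNA was polyadenylated RNA of the whole organ, so a lower number of cells of a type and less RNA per cell cannot be told apart.

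Chemokines are small secreted proteins that direct the movement of cells bearing the matching receptor. CCL17 and CCL22 are ligands of CCR4, which is found on T helper and regulatory T cells, and both are typical products of dendritic cells and of macrophages exposed to interleukin-4. CX3CL1, or fractalkine, is made as a membrane protein, is abundant on endothelial cells and binds CX3CR1 on macrophages. In the testis CXCL12, which binds CXCR4, is made by Sertoli cells and guides germ cells to their niche.

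*Ccl17* (ENSMUSG00000031780) lies on the plus strand of chromosome 8 from 94810453 to 94812036 in the GRCm38 build and has 3 exons, at 94810453 to 94810571, 94811186 to 94811303 and 94811760 to 94812036. *Cx3cl1* ends 28.0 kb before it and *Ccl22* lies further upstream, on the same strand. The 250 bases before the annotated start of each of these 3 genes are shown because the genes are neighbours with different values in the 6 testes. They are given 5′ to 3′ on the plus strand from RefSeq (GRCm38.p6), with matches to the motifs searched in capitals, at chr8:94810203-94810452, chr8:94771930-94772179 and chr8:94745434-94745683.
*Ccl17*: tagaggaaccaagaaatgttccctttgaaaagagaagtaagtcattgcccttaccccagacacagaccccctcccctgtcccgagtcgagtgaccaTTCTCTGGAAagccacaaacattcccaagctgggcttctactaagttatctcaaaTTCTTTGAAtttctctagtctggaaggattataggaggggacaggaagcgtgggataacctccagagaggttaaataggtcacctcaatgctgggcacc
*Cx3cl1*: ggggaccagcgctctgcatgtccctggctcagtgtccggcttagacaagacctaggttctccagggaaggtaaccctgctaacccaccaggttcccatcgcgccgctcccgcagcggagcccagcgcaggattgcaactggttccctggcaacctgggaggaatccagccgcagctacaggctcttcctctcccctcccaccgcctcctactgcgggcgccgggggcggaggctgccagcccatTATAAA
*Ccl22*: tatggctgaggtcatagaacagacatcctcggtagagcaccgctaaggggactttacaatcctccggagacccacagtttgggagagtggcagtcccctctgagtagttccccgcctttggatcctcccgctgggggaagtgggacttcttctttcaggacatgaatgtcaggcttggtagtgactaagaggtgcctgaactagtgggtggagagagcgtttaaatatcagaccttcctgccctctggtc

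The *Ccl17* sequence held 1 match to TTCNNNNGAA, the letters of a STAT6 site, at bases -154 to -145 from the start. It also held 1 match to TTCNNNGAA, the letters of a site for other STAT factors, at -99 to -91. These letters were found on either strand in 5.85% and 7.02% of 32851 mouse promoter windows of the same length. The *Cx3cl1* sequence ended in the TATA box letters TATAAA at -6 to -1, letters that 12.4% of the windows hold. The interferon factor letters GAAANNGAAA (2.98% of windows) and the NF-kappaB motif (7.25%) had no match in any of the 3 sequences, and *Ccl22* had no match to any of the 5 motifs. GC content was 47.6% for *Ccl17*, 53.6% for *Ccl22* and 64.8% for *Cx3cl1*. The RefSeq start of *Ccl17* is that of the deposited table, whereas for the other 2 genes the RefSeq start lies inside the table's gene. These matches are letters in a window and not measured sites.

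Sequencing depth was even, with 15448191 to 18964743 reads recovered from the deposited values per sample and 24918 to 25793 genes above 0. *Srsf1* was measured at 82.1, 89.1 and 88.4 FPKM (fragments per kilobase of gene, scaled to depth) in Ctrl and 45.1, 46.3 and 51.6 FPKM in the cKO testes. Ctrl 2 stood apart from the other Ctrl samples. Its summed germ cell marker level was 382.1 FPKM, against 159.4 in Ctrl 1 and 176.7 in Ctrl 3, and it had the lowest *Ccl17*, *Cx3cl1* and *Cxcl12* values of the 6 testes. The differences of the well measured chemokines and the medians of the lists are also given without it.

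*Ccl17* was measured at 6.97, 4.80 and 8.56 FPKM in the Ctrl testes and at 32.0, 36.3 and 56.4 FPKM in the cKO testes. Every cKO value was far above every Ctrl value, and cKO 3 was the highest. These levels rested on 58, 47 and 73 reads in Ctrl and 259, 312 and 448 reads in cKO. The means were 6.78 ± 1.89 FPKM (SD, n = 3) and 41.6 ± 13.0 FPKM (SD, n = 3), a ratio of 6.14. On the log2(FPKM + 1) scale, on which all differences below are given as cKO minus Ctrl, the difference was 2.44 (SE 0.32). It was the most positive among the 16206 tested genes, those averaging 0.5 FPKM or more over the 6 samples. Without Ctrl 2 it was 2.24, and over the other settings it ran from 2.20, without cKO 3, to 2.62 in recovered reads.

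**Figure D1:**
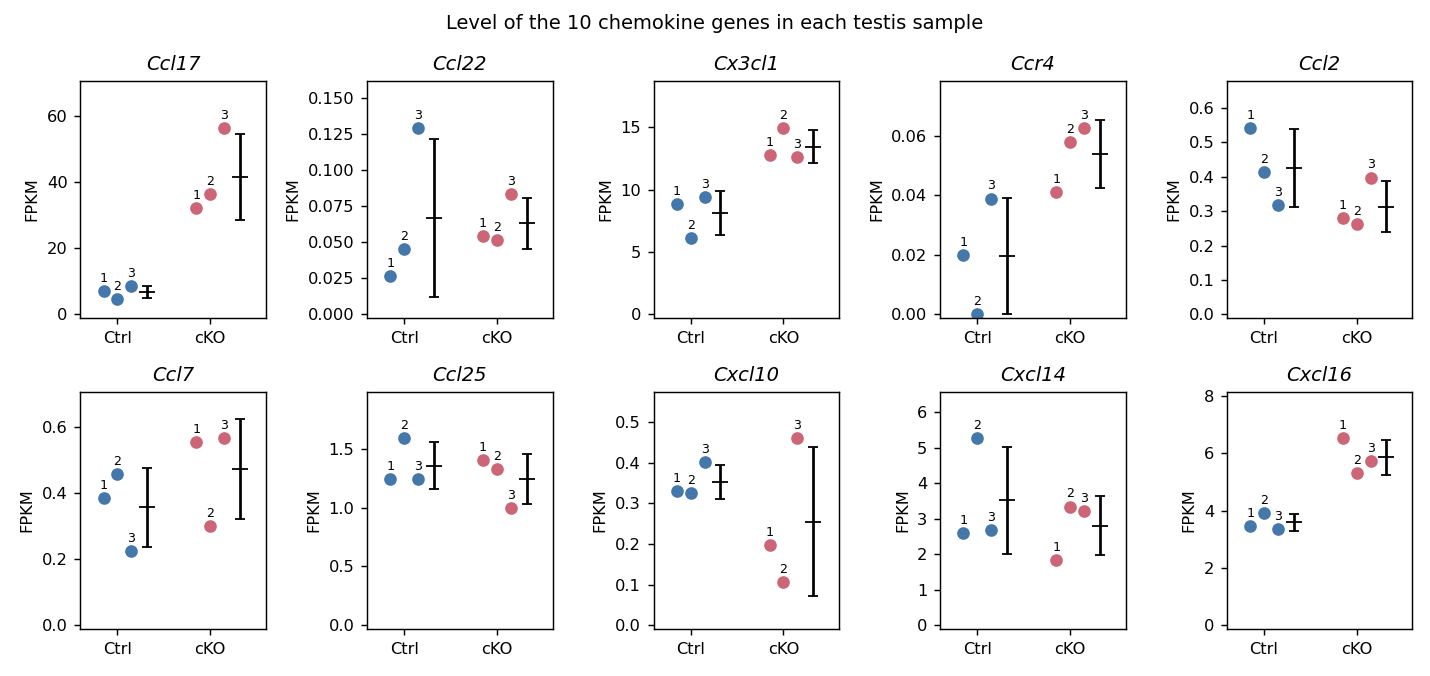
FPKM of the 10 chemokine genes, 1 panel and 1 linear axis per gene, with a numbered point for each of the 3 Ctrl and 3 cKO testes and, beside the points, the mean with a bar of 1 SD. *Ccl17* runs from 4.80 to 8.56 in Ctrl and from 32.0 to 56.4 in cKO, and *Cx3cl1* and *Cxcl16* separate by a smaller step.

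*Cx3cl1*, the gene of fractalkine, was the tested chemokine gene closest to *Ccl17* on chromosome 8. It was measured at 8.87, 6.15 and 9.43 FPKM in Ctrl and 12.8, 15.0 and 12.6 FPKM in the cKO testes. The groups did not overlap, with every cKO sample higher. The means were 8.15 ± 1.76 and 13.5 ± 1.31 FPKM (SD, n = 3 each), 1.65-fold higher in cKO, with a log2 difference of 0.68 (SE 0.19), or 0.51 without Ctrl 2. *Ccl22*, which encodes the other CCR4 ligand, gave 1, 2 and 5 reads in Ctrl and 2, 2 and 3 reads in cKO testes. Its values, 0.027 to 0.130 FPKM, lay around the level that 3 reads would give (0.0678 to 0.0835 FPKM over the 6 libraries). Moderate differences were therefore not detectable at this depth. In total *Ccl22* had 8 reads in Ctrl and 7 in cKO, beside 178 and 1019 for *Ccl17*, so no step of that size was seen. The neighbour that shares the receptor of CCL17 was thus close to the floor in both groups, while the neighbour with another receptor was well measured.

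*Ccr4*, the receptor of CCL17 and CCL22, was also near the floor. It had 1, 0 and 2 reads in Ctrl and 2, 3 and 3 reads in cKO testes, at most 0.063 FPKM, where 3 reads would give 0.0510 to 0.0628 FPKM over the 6 libraries. The cKO values were above the Ctrl values without overlap, but at so few reads a difference was not detectable and no fold is given. Among 10 T cell markers, the canonical T cell receptor complex genes *Cd3d*, *Cd3e* and *Cd3g* were at most 0.35 FPKM in every testis. The 2 tested markers of that list were higher, both with overlap between groups. *Trac*, the T cell receptor alpha constant gene, averaged 6.12 FPKM in Ctrl and 4.85 FPKM in the cKO group. *Lck* averaged 0.903 and 0.927 FPKM in the same order. Whether cells bearing CCR4 were present was not tested.

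*Cxcl16*, which encodes a transmembrane chemokine that binds CXCR6, was measured at 3.48, 3.93 and 3.35 FPKM in Ctrl and 6.52, 5.31 and 5.74 FPKM in the cKO testes. The groups did not overlap and the replicates lay close together. The means were 3.59 ± 0.304 and 5.86 ± 0.613 FPKM (SD, n = 3 each), 1.63-fold higher in cKO, with a log2 difference of 0.58 (SE 0.092), or 0.63 without Ctrl 2. *Cxcl16* overlaps *Zmynd15* on the opposite strand, which averaged 0.749 FPKM in Ctrl and 0.884 FPKM in the cKO group, and whether the counting used strand is not given in the sources used here.

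*Cxcl14*, a chemokine of epithelia and stroma, was measured at 2.60, 5.26 and 2.67 FPKM in Ctrl and 1.84, 3.34 and 3.22 FPKM in the cKO testes. The groups overlapped, Ctrl 2 was the highest sample, and the log2 difference was -0.22 (SE 0.33), or 0.039 without Ctrl 2. *Ccl25*, a ligand of CCR9 best known from thymus and gut, was measured at 1.24, 1.59 and 1.24 FPKM in Ctrl and 1.40, 1.33 and 1.00 FPKM in the cKO testes. Its groups overlapped too, with a log2 difference of -0.07 (SE 0.11), or -0.0042 without Ctrl 2, and it overlaps *Elavl1* on the opposite strand.

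The inflammatory chemokines were at low levels in both groups. *Ccl2*, the classical monocyte attractant, gave 10, 9 and 6 reads in Ctrl and 5, 5 and 7 reads in cKO testes, or 0.318 to 0.543 and 0.263 to 0.398 FPKM. *Ccl7*, which lies beside *Ccl2* on chromosome 11 and shares the receptor CCR2, gave 5, 7 and 3 reads in Ctrl and 7, 4 and 7 reads in cKO. *Cxcl10*, an interferon-induced ligand of CXCR3, gave 12, 14 and 15 reads in Ctrl and 7, 4 and 16 reads in cKO, within a span shared with *Art3* on the opposite strand. The 2 groups overlapped for each of these 3 genes, and at so few reads moderate differences were not detectable.

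Of the 10 genes, 5 had a mean of at least 0.5 FPKM and 5 were below it. Among those 5 well measured genes, *Ccl17*, *Cx3cl1* and *Cxcl16* were higher in cKO without overlap, *Cxcl14* and *Ccl25* overlapped, and 0 were lower without overlap. Among all 16206 tested genes, 10.3% were higher in cKO without overlap and 12.8% were lower without overlap. In the Ctrl testes *Cx3cl1* was the higher of the pair in each sample, with a ratio of *Ccl17* to *Cx3cl1* from 0.781 to 0.908. In the cKO testes the order was turned, with *Ccl17* above *Cx3cl1* in each sample.

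**Figure D2:**
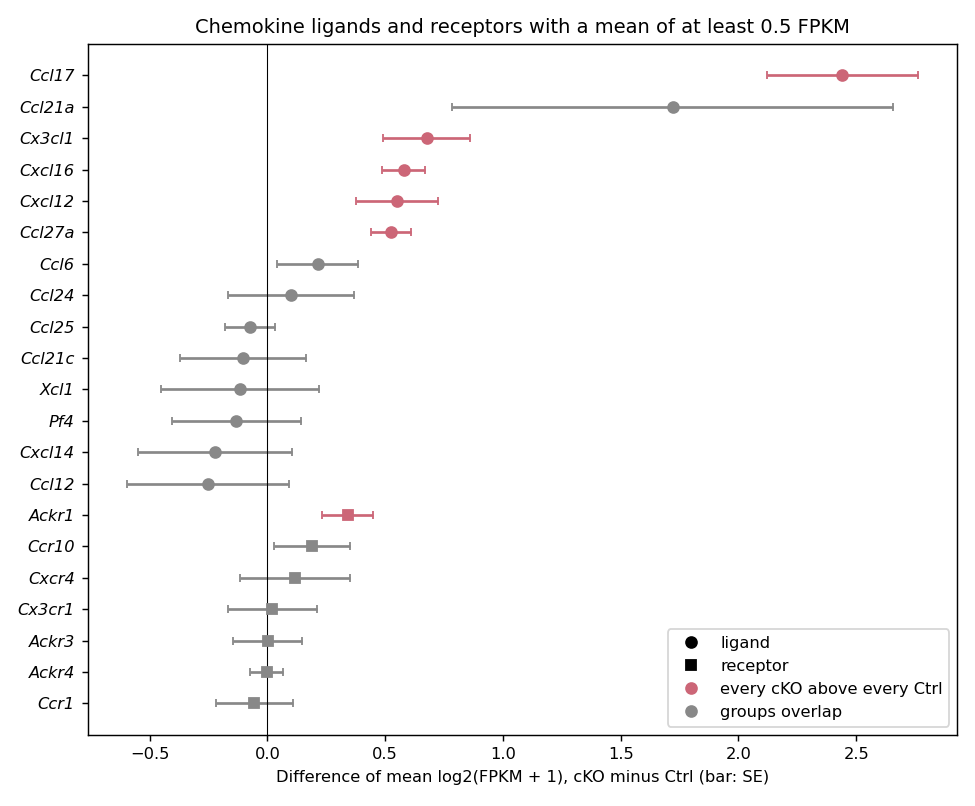
Difference in mean log2(FPKM + 1), cKO minus Ctrl, of each tested chemokine ligand (circles) and receptor (squares), 1 row per gene with a bar of 1 SE and the genes without overlap between groups in red. *Ccl17* is at 2.44, *Ccl21a* at 1.72 with overlap between groups, *Cx3cl1* at 0.68 and *Cxcl16* at 0.58.

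The other chemokine ligands were examined as a complete family by symbol, 41 symbols and 47 gene identifiers, of which 11 were at 0 in all samples and 14 were tested. In limma on log2(FPKM + 1), 0 ligands passed an adjusted p of 0.05 in either direction, where 0% of all tested genes passed as higher. At an unadjusted p under 0.05, 6 ligands were higher and 0 lower in cKO, where 6.6% of all tested genes were higher and 9.31% lower. In limma voom on the recovered reads, 1 ligand passed the adjusted threshold as higher, *Ccl17* itself, where 0.136% of all tested genes passed as higher. *Ccl17* was chosen on this contrast, so that call is no independent evidence. The median log2 difference of the 14 ligands was 0.16, or 0.14 without Ctrl 2, beside 0.0027 for all tested genes. *Ccl17*, *Cx3cl1* and *Cxcl16* were among the 6 ligands counted above, and the median includes the members. Both are therefore a description and no independent evidence about the family. Of the 14, *Ccl6* passed the filter through the cKO samples alone and *Ccl12* through the Ctrl samples alone, both with overlap.

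Leaving out the members, 9 ligands were tested, with 3 higher at an unadjusted p under 0.05, 2 higher without overlap and a median of 0.099, or 0.14 without Ctrl 2. Their log2 differences ran from -0.25 to 1.72, the latter for *Ccl21a*, whose groups overlapped. Their limma adjusted p-values ran from 0.105 to 0.869. Among ligands outside the members with a mean of at least 1 FPKM, 2 of 4 were higher without overlap, *Cxcl12* and *Ccl27a*, and 0 lower. Of all 14009 genes at that level, 1481 were higher and 1848 lower without overlap.

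*Cxcl12* had the highest mean FPKM of all ligands. It was measured at 30.9, 23.8 and 35.0 FPKM in Ctrl and 44.9, 39.7 and 46.9 FPKM in the cKO group, from 3711 to 5929 reads per sample. The groups did not overlap, with means of 29.9 ± 5.66 and 43.9 ± 3.71 FPKM (SD, n = 3 each), 1.47-fold higher in cKO. The log2 difference was 0.55 (SE 0.17), or 0.40 without Ctrl 2, with an adjusted p of 0.166 in limma and 0.0859 in limma voom, so it did not pass the test. *Ccl27a*, a chemokine of skin epithelium that binds CCR10, was measured at 3.40, 3.65 and 3.75 FPKM in Ctrl and 6.39, 5.24 and 5.28 FPKM in the cKO group. Its log2 difference was 0.52, or 0.53 without Ctrl 2, with an adjusted p of 0.105 in limma. *Ccl27a* has 3 identifiers in the table and overlaps *Il11ra1* on the opposite strand, so its level is uncertain.

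**Figure D3:**
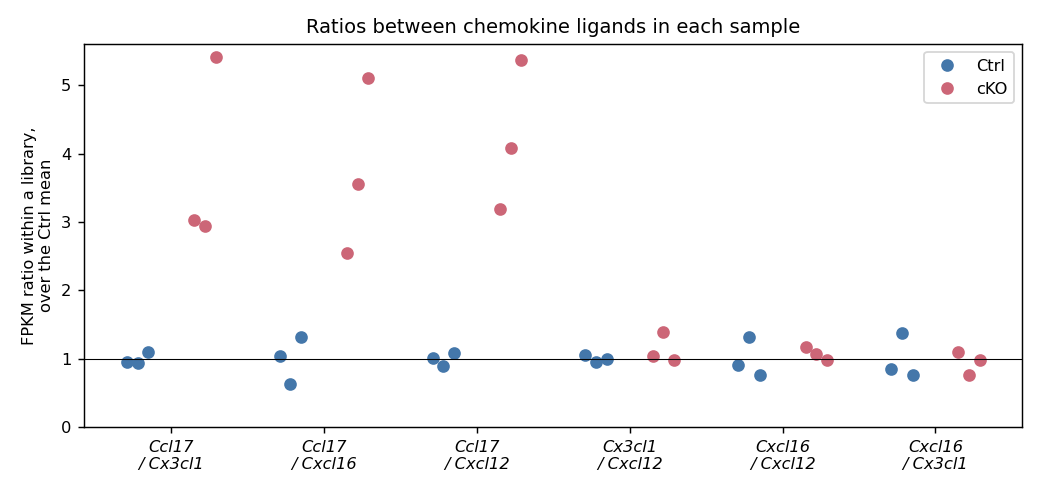
Ratios of FPKM between chemokine ligands within each testis, each divided by its Ctrl mean so that 1 is the Ctrl level (linear axis), with 1 point per sample. The 3 ratios with *Ccl17* on top are higher in all 3 cKO testes than in any Ctrl testis, and the 3 ratios among *Cx3cl1*, *Cxcl16* and *Cxcl12* overlap between groups.

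Ratios between ligands of the same testis do not depend on the scaling between libraries. The ratio of *Ccl17* to *Cx3cl1* was 0.786, 0.781 and 0.908 in Ctrl and 2.50, 2.43 and 4.47 in cKO testes. The ratio of *Ccl17* to *Cxcl12* was 0.226, 0.201 and 0.244 in Ctrl and 0.713, 0.915 and 1.20 in cKO testes. The ratio of *Ccl17* to *Cxcl16* ran from 1.22 to 2.55 in Ctrl and from 4.91 to 9.82 in cKO. By contrast, the ratio of *Cx3cl1* to *Cxcl12* was 0.287, 0.258 and 0.269 in Ctrl and 0.285, 0.377 and 0.269 in cKO, and the ratios of *Cxcl16* to *Cxcl12* and to *Cx3cl1* overlapped as well. The ratios among *Cx3cl1*, *Cxcl16* and *Cxcl12* thus did not separate the groups, whereas each ratio with *Ccl17* did. The latter ratios include the gene chosen for its difference and carry no test.

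*Ccl17* took 9.37%, 6.56% and 9.61% of the summed FPKM of all ligands in the Ctrl testes and 24.4%, 27.9% and 32.0% in the cKO testes. The summed ligand level without *Ccl17* was 67.5, 68.4 and 80.5 FPKM in Ctrl and 99.2, 94.0 and 120.0 FPKM in the cKO testes. The remainder was therefore also higher in each cKO sample than in each Ctrl sample. It still includes the members *Cx3cl1* and *Cxcl16*, and *Cxcl12* is its largest part. In cKO 3 it also holds 26.2 FPKM of *Ccl21a*, whose level is uncertain. The sum is a description and no independent evidence about the family.

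The other genes near *Ccl17* were read in the same way. Within 500 kb lie 43 genes, of which 18 were tested, and 0 passed the adjusted threshold in limma in either direction. Leaving out the members, 16 were tested. Of these, 3 were higher and 2 lower without overlap, and 3 were higher and 2 lower at an unadjusted p under 0.05. Among all tested genes 10.3% were higher and 12.8% lower without overlap, and 6.6% and 9.31% at that unadjusted p. The differences of the 16 genes ran from -0.66 to 0.37 with a median of 0.057, none near that of *Ccl17*, and 0 passed in limma voom.

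*Ciapin1*, a gene of cytosolic iron-sulphur protein assembly, is the next tested gene after *Ccl17*, lies on the opposite strand and has its near end 7.77 kb away. It averaged 7.37 ± 1.59 FPKM in Ctrl and 5.24 ± 0.928 FPKM in the cKO testes (SD, n = 3 each), a log2 difference of -0.42 with an adjusted p of 0.290 in limma. *Coq9*, which serves coenzyme Q synthesis and overlaps the start of *Ciapin1*, averaged 18.6 and 19.3 FPKM with a difference of 0.04. On the other side *Arl2bp* averaged 40.8 and 43.4 FPKM and *Rspry1* averaged 3.47 and 3.06 FPKM, with overlapping groups. Of the tested genes on this stretch the pair with the most positive differences was *Ccl17* and *Cx3cl1*.

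**Figure D4:**
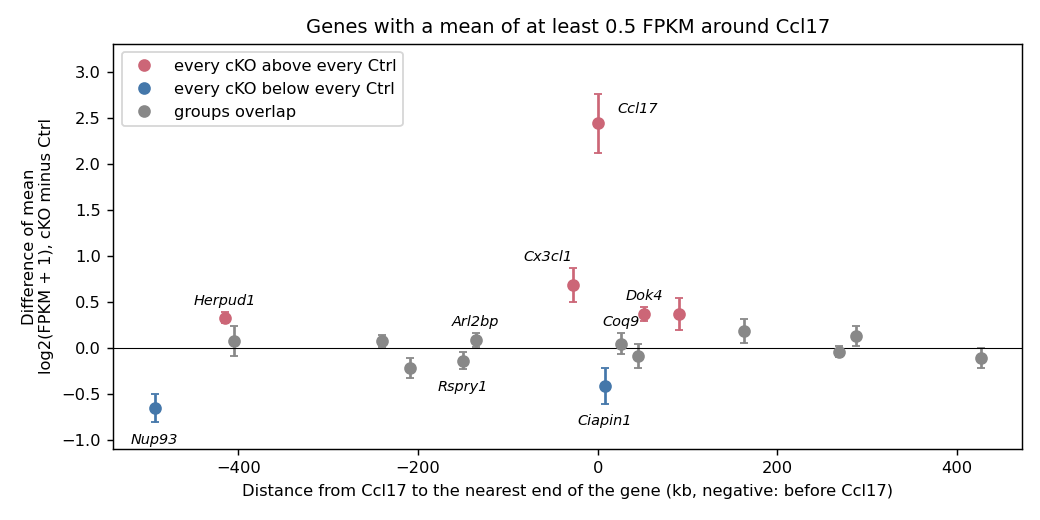
Difference in log2(FPKM + 1), cKO minus Ctrl, of the 18 tested genes within 500 kb of *Ccl17* against distance from *Ccl17* in kb, with bars of 1 SE. *Ccl17* is at 2.44 and *Cx3cl1* at 0.68, and the other genes lie between -0.66 and 0.37.

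No receptor passed the test. Of 23 signalling and atypical chemokine receptors, 7 were tested, and in limma 0 passed the adjusted threshold or an unadjusted p under 0.05 in either direction, and 0 passed in limma voom. The median log2 difference was 0.022, or 0.049 without Ctrl 2, and the adjusted p-values ran from 0.318 to 0.998. *Ackr1*, a decoy receptor of venular endothelium, was the 1 tested receptor without overlap, at 0.378 ± 0.140 FPKM in Ctrl and 0.744 ± 0.141 FPKM in the cKO group (SD, n = 3 each). It passed the filter through the cKO samples alone, and its span overlaps *Cadm3*, which averaged 1.10 and 1.33 FPKM. Among all tested genes 10.3% were higher without overlap.

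Of the receptors for the members, *Cx3cr1*, which binds CX3CL1, was measured at 1.69, 2.26 and 3.10 FPKM in Ctrl and 2.13, 2.26 and 2.69 FPKM in the cKO testes, so the groups overlapped. Its annotated span overlaps *Wdr48* and other genes, so its level is uncertain. *Ccr2*, the receptor of CCL2 and CCL7 on monocytes, was below the filter, with 29, 27 and 22 reads in Ctrl and 53, 60 and 58 reads in cKO. Its values were 0.265, 0.210 and 0.196 FPKM in Ctrl and 0.498, 0.531 and 0.555 FPKM in the cKO group, and the groups did not overlap. *Cxcr3*, the receptor of CXCL10, had 6, 11 and 7 reads in Ctrl and 3, 3 and 4 reads in cKO testes. *Cxcr6*, the receptor of CXCL16, overlapped between groups at 0.132 to 0.490 FPKM and shares its locus with *Fyco1* on the other strand. *Ccr9*, the receptor of CCL25, was at most 0.0743 FPKM. *Cxcr4*, the receptor of CXCL12, averaged 3.47 ± 0.509 FPKM in Ctrl and 3.93 ± 1.33 FPKM in the cKO group (SD, n = 3 each), with overlap.

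Genes of signalling pathways known to induce chemokines were counted next. Of 19 genes of IL-4, IL-13, TSLP and GM-CSF signalling, which induces CCL17 in myeloid cells, 12 were tested, and 2 were higher and 2 lower without overlap, with a median of 0.086. Among all tested genes 10.3% were higher and 12.8% lower without overlap. *Jak1*, a kinase shared by many cytokine receptors, averaged 46.9 and 46.5 FPKM. *Stat6*, the factor through which IL-4 acts, averaged 10.2 ± 1.66 FPKM in Ctrl and 11.6 ± 0.892 FPKM in the cKO group, and *Csf2ra*, a subunit of the GM-CSF receptor, 18.8 ± 3.01 and 22.0 ± 3.3 FPKM (SD, n = 3 each), both with overlap. *Il4* itself was measured at 2.92, 3.0 and 2.26 FPKM in Ctrl and 4.35, 3.71 and 3.64 FPKM in the cKO group, with an adjusted p of 0.205 in limma. It was chosen after its values were seen.

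Of 16 interferon-induced genes 10 were tested, and 0 were higher and 2 lower without overlap, with a median of -0.12. *Irf1*, a transcription factor, averaged 8.87 ± 3.07 FPKM in Ctrl and 6.12 ± 0.333 FPKM in the cKO group, with overlap. Of 14 NF-kappaB and inflammatory genes 8 were tested, and 1, *Relb*, was higher and 0 lower without overlap, with a median of 0.094. *Nfkbia* averaged 50.8 and 55.2 FPKM and *Rela* 25.3 and 26.6 FPKM, both with overlap. In limma 0 genes of these 3 lists passed the adjusted threshold, and 2 higher and 3 lower had an unadjusted p under 0.05, while 0 passed in limma voom. Among all tested genes 6.6% were higher and 9.31% lower at that unadjusted p, and 10.3% and 12.8% without overlap. Without Ctrl 2 the medians of the 3 lists were 0.056, -0.12 and 0.034, in the same order.

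Markers of the cells that could carry these transcripts were counted beside them. Of 12 dendritic cell markers 7 were tested, with 2 higher and 1 lower without overlap, a median of 0.17 and a summed level of 17.6 to 20.7 FPKM in Ctrl and 21.2 to 23.4 FPKM in the cKO group. Among all tested genes 10.3% were higher and 12.8% lower without overlap. *Zbtb46*, a transcription factor of classical dendritic cells, had a difference of 0.04 (SE 0.12) and *Cd74*, the MHC class II invariant chain, of 0.17 (SE 0.31), both with overlap. *Zbtb46* averaged 8.78 FPKM in Ctrl and 9.04 FPKM in the cKO group, the highest of the list. It therefore weighs most in the summed level, and whether dendritic cells carried it was not tested. The pair that was higher, *H2-Aa* and *H2-Ab1*, encodes MHC class II chains and averaged 1.17 and 1.13 FPKM in Ctrl and 2.51 and 2.31 FPKM in the cKO group. *Mgl2*, a lectin of dendritic cells and macrophages, averaged 1.27 and 0.350 FPKM and passed the filter through the Ctrl samples alone. Without Ctrl 2 the median of the list was -0.039. The differences were then 0.93 for *H2-Aa*, 0.76 for *H2-Ab1* and 0.56 for *Batf3*, beside 0.75, 0.68 and 0.40 with Ctrl 2. Those of *Zbtb46*, *Cd74*, *Flt3* and *Mgl2* were then -0.039, -0.11, -0.046 and -0.49. The groups overlapped for *Batf3*. *Itgax* and *Ciita*, also on the list, were below the filter, at most 0.276 FPKM.

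Of 12 macrophage markers 11 were tested, and 0 were higher or lower without overlap. Their median was 0.065, or 0.021 without Ctrl 2, and their summed level was 99.9 to 139.4 FPKM in Ctrl and 119.3 to 192.8 FPKM in the cKO group. *Lyz2*, the lysozyme of macrophages, averaged 47.7 ± 10.9 FPKM in Ctrl and 77.1 ± 33.9 FPKM in the cKO group, and *C1qa*, a complement subunit, 20.8 ± 5.26 and 20.9 ± 1.79 FPKM (SD, n = 3 each). Of 10 T cell markers 2 were tested, both with overlap, with a median of -0.14, or -0.035 without Ctrl 2, and a summed level of 6.8 to 9.7 FPKM in Ctrl and 5.8 to 8.3 FPKM in the cKO group. Of 9 endothelial markers 8 were tested, 4 of which were higher and 0 lower without overlap, where 10.3% of all tested genes were higher. 1 of the 4, *Flt1*, passed the filter through the cKO samples alone. The median was 0.31, or 0.28 without Ctrl 2. *Cdh5*, the endothelial cadherin, averaged 29.3 ± 5.14 and 37.8 ± 3.22 FPKM, with overlap, and *Pecam1*, an endothelial adhesion molecule, 5.75 ± 0.489 and 7.86 ± 0.476 FPKM (SD, n = 3 each), without overlap and with an adjusted p of 0.144 in limma. The summed endothelial level was 48.7 to 59.8 FPKM in Ctrl and 64.0 to 70.4 FPKM in the cKO group. In limma 0 genes of these 4 lists passed the adjusted threshold, while 6 higher and 1 lower had an unadjusted p under 0.05, and 0 passed in limma voom. Among all tested genes 6.6% were higher and 9.31% lower at that unadjusted p.

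Germ cell markers were lower. Of the 15 markers 13 were tested, and all 13 were lower in cKO without overlap, with a median of -1.43 and a summed level of 42.0 to 78.3 FPKM in the cKO group beside 159.4 to 382.1 FPKM in Ctrl. In limma 0 of them passed the adjusted threshold, 13 had an unadjusted p under 0.05, and 4 passed in limma voom. *Dazl*, which encodes a germ cell RNA-binding protein, averaged 75.5 ± 39.2 FPKM in Ctrl and 14.7 ± 6.16 FPKM in the cKO group (SD, n = 3 each), with the spread in Ctrl set by Ctrl 2. Of 8 Leydig cell markers 7 were tested, and 3 were higher and 0 lower without overlap, with a median of 0.44 and a summed level of 433.3 to 629.0 FPKM in Ctrl and 663.3 to 754.7 FPKM in the cKO group. Sertoli cell markers were higher for 2 and lower for 4 of 14 tested without overlap, with a median of -0.068 and sums of 2288 to 3321 and 2977 to 3338 FPKM. 1 of the 4 lower, *Dmrt1*, averaged 76.1 FPKM in Ctrl and 48.9 FPKM in the cKO group. The study also lists DMRT1 among the factors of spermatogonial stem cells, so it is no marker of Sertoli cells alone. Of 6 peritubular myoid markers, 1 was higher and 2 lower without overlap, with a median of -0.35 and sums of 521 to 533 FPKM in Ctrl and 328 to 511 FPKM in the cKO group. In these 3 somatic lists 0 genes passed the adjusted threshold in limma or in limma voom, and 6 higher and 7 lower had an unadjusted p under 0.05. Among all tested genes 6.6% were higher and 9.31% lower at that unadjusted p, and 10.3% and 12.8% without overlap. Without Ctrl 2 the medians were -1.11 for germ cell, 0.40 for Leydig cell, -0.22 for Sertoli cell and -0.34 for peritubular myoid markers. The part of the lower germ cell level and of the higher endothelial and Leydig cell levels in the chemokine values was not tested.

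**Figure D5:**
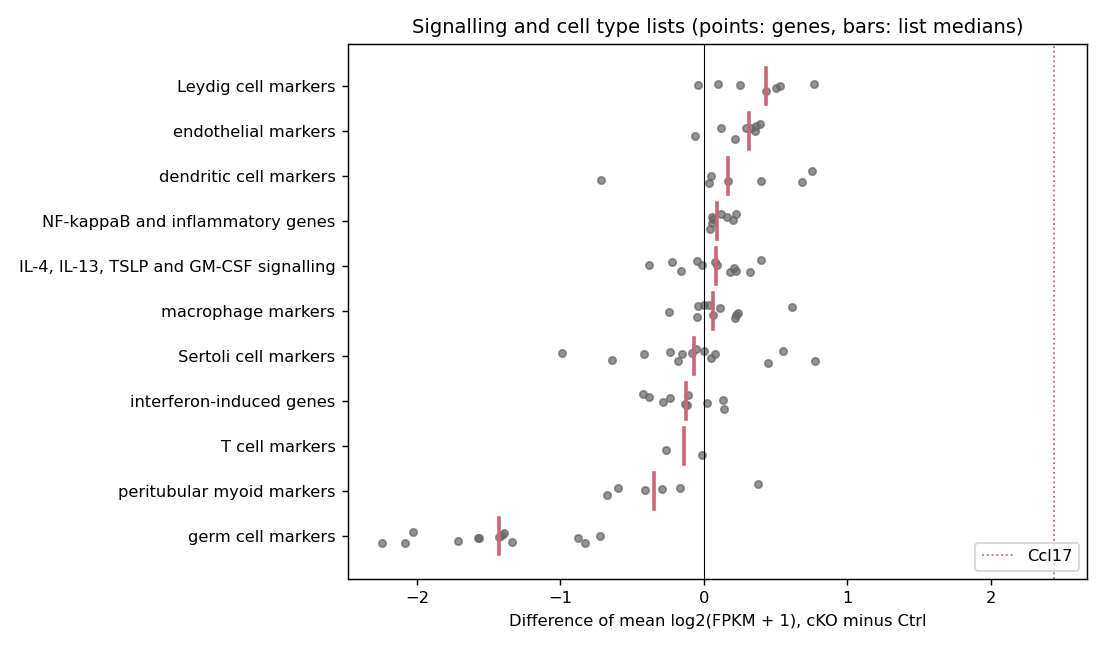
Differences in mean log2(FPKM + 1), cKO minus Ctrl, of the tested genes of each signalling and cell type list, 1 point per gene, with a red bar at the list's median and a dotted line at *Ccl17* (2.44). The 13 germ cell markers have a median of -1.43 and the 8 endothelial markers of 0.31, beside 0.0027 for all tested genes.

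The 5 protein-coding genes whose log2(FPKM + 1) followed *Ccl17* most closely over the 6 testes, of 12097 compared, were *Pnmal2* (Pearson r = 0.997), *Hnrnpa1* (0.995), *Thap3* (0.995), *Btbd19* (0.994) and *Hic1* (0.993). These values are a description over 6 samples that share the group difference. *Pnmal2* averaged 6.03 ± 0.612 FPKM in Ctrl and 10.6 ± 1.20 FPKM in the cKO group, and *Hnrnpa1*, which encodes a splicing regulator, 335.4 ± 4.32 and 389.5 ± 6.83 FPKM (SD, n = 3 each). Their ratios of means lay between 1.16 and 1.75, below the 6.14 of *Ccl17*, and none of the 5 was a chemokine gene.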

How the data were processed

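Polyadenylated RNA of 3 Ctrl and 3 cKO testes was sequenced as paired ends, and replicate numbers came from the sample titles. Per the study's methods and the submitters' processing notes, the authors aligned reads with HISAT2 2.0.5 to mm10, counted them with featureCounts and deposited FPKM per gene, from gene length and read count. The annotation release and strand setting are not given in the sources used here. In all 6 columns, 100% of the FPKM values were whole multiples of 1 read's worth within 0.01, so reads were recovered, and the values already carried a scaling between libraries. Levels that 3 reads would give cover counting error only.

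The members and all lists were chosen with earlier results of these data known. Limma 3.58.1 in R 4.3.3 was fitted to log2(FPKM + 1) of the 16206 genes averaging 0.5 FPKM or more, with a mean-variance trend and group as the only term. Two-sided p-values were Benjamini-Hochberg adjusted over these genes at 0.05. The scale understates changes of low genes. The deposited unit is FPKM, so limma on that scale was the main fit, and limma voom on recovered reads was an alternative. The study's count test, DESeq2, was not run on the recovered reads. With it the study reported genes both higher and lower in cKO at an adjusted p of 0.05 or less. A count of 0 in limma is therefore no sign that a gene did not change. The study's methods call the samples of a group biological replicates. The tests were checked on simulated data.

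Named genes were the 10 members, other chemokine ligands and receptors with a mean of at least 1 FPKM and no overlap between groups, the members' receptors, the nearest 2 tested protein-coding genes on either side of the *Ccl22* to *Ccl17* stretch, the 5 protein-coding genes most correlated with *Ccl17*, *Srsf1*, and, as examples, up to 4 genes with the highest mean FPKM in a list. The list genes *Il4*, *Stat6*, *Relb*, *Mgl2*, *Flt3*, *H2-Ab1*, *Itgax*, *Ciita*, *Flt1*, *Cd3d*, *Cd3e* and *Cd3g*, the receptors *Cxcr4* and *Ackr1*, and the ligands *Ccl6*, *Ccl12*, *Ccl21a* and *Pf4* fell outside this rule and were picked with their values in view. *Dmrt1* was also picked with its values in view. All 10 members have the same coordinates in GENCODE mouse release M21. Alternatives were another pseudocount, filters, scalings, gene sets and tests, the replicate number as a block, and leaving out each sample. Some genes of the lists are not reported here.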

Additional observations from a re-analysis of the deposited data

How the results depend on the processing

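Over 16 alternative settings the difference of *Ccl17* kept its sign, between 2.20 and 2.62 on the log2 scale. *Cx3cl1* ran from 0.51 to 0.78 and *Cxcl16* from 0.51 to 0.70, whereas *Cxcl14* (-0.36 to 0.039) and *Ccl25* (-0.14 to 0.0072) each changed sign once. The number of chemokine ligands past the adjusted threshold, 0 in limma on log2(FPKM + 1), was 1 in TPM, 1 in limma voom and 1 with the replicate block, *Ccl17* each time. It was 3 when only the 13204 protein-coding genes were tested, where *Cxcl16* and *Ccl27a* joined, *Ccl27a* with a limma adjusted p of 0.0492. *Ccl17* and *Cxcl16* are members, and members and lists were chosen with earlier results known. These calls are therefore no independent evidence. The number of genes within 500 kb of *Ccl17* was 1 instead of 0 in TPM, voom, the replicate block and protein-coding genes, again *Ccl17*. Leaving out each sample gave 0 for ligands, receptors and neighbours, and receptors stayed at 0 in all settings. The cause of these moves was not tested. Over the whole table the higher and lower calls, 0 and 0 in limma, were 22 and 61 in voom, 37 and 176 among protein-coding genes, 14 and 84 with the replicate block, 4 and 1 in TPM, and 3 and 15 without Ctrl 2. Same-numbered samples deviated together with correlations of 0.066, 0.016 and 0.088, and each correlated best with its own number, a hint from the data and not from the design. The numbers were therefore not taken to pair the samples. Depth limits *Ccl22*, *Ccr4*, *Ccl2*, *Ccl7* and *Cxcl10*, whose 3-read levels were 0.0510 to 0.242 FPKM.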

Other observations

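*Ccl21a*, a ligand of CCR7 made by lymphatic and lymphoid stromal cells, differed widely between the cKO testes. Its identifier with the higher level was measured at 1.38, 2.09 and 1.80 FPKM in Ctrl and at 8.22, 1.94 and 26.2 FPKM in the cKO group, from 9, 16 and 12 and from 52, 13 and 163 reads. The log2 difference was 1.72 (SE 0.93), or 1.81 without Ctrl 2, the most positive of the tested ligands after *Ccl17*. The ratio of means was 6.90, with the cKO mean set mostly by cKO 3. The limma adjusted p was 0.302 and the groups overlapped. Near-identical *Ccl21* copies share reads, so its level is uncertain.

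*Pf4*, the platelet chemokine CXCL4, was among the more abundant ligands and averaged 13.3 ± 3.63 FPKM in Ctrl and 11.9 ± 2.43 FPKM in the cKO testes (SD, n = 3 each), with overlap. *Trac*, the T cell receptor alpha constant gene, was measured at 5.15, 8.31 and 4.90 FPKM in Ctrl and 5.98, 4.29 and 4.29 FPKM in the cKO group while *Cd3e* had 0 to 9 reads per testis.

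The extract protocol in the labels names retina as the tissue, whereas the tissue label is testis. The photoreceptor gene *Sag* was at most 0.0944 FPKM and *Crx* was at 0 in every sample, while the Sertoli cell genes *Amh* and *Inha* were at least 257 and 439 FPKM. These genes were chosen after their values were seen.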
